A study of Penicillium oxalicum with 9 samples.

Results

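Transcript levels of a Penicillium oxalicum strain lacking crzA were compared with those of a strain into which crzA had been put back, called the recovery strain here. The comparison used 6 of the 9 libraries of the series, 3 per strain, and these 6 were chosen by their strain labels. Penicillium oxalicum is a filamentous fungus that grows on plant matter and secretes enzymes that break down cellulose and starch. Mycelium of both strains was pre-cultured for 24 h at 30 °C on 2% starch, washed, moved to a modified Mendal's medium with 2% starch and harvested 18 h later. The source labels name glucose in place of starch, and the conflict was not settled. The labels do not give the parent strain of either mutant, the selection marker, the promoter or site of the returned crzA, or the number of clones, so other differences between the strains cannot be told apart from that in crzA. They also do not say whether the replicates were separate cultures, and p-values therefore rest on differences among these libraries that may be only technical.

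CrzA is a zinc finger transcription factor. In fungi, a rise in calcium activates the phosphatase calcineurin, which removes phosphate from CrzA so that it enters the nucleus and changes the transcription of its target genes. The pathway is known for its part in tolerance of calcium and other ions, in the upkeep of the cell wall and, in filamentous fungi, in hyphal growth and spore formation. The title of the series adds fungal development and the genes for cellulose breakdown. A strain with crzA put back is meant to ask which differences go with the gene itself, within the limits of the labels given above.

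The file listed 9860 genes by locus number and gave each a level in FPKM, a unit that divides the fragments counted for a gene by its length and by the size of the library. No gene names stand beside the numbers, and 0 of them were found in the available gene table, which is that of strain HP7-1. The transcript of crzA could thus not be followed as a check on the labels, and groups such as the genes for cellulases, amylases, calcium transport or spores are not analysed here. Summed FPKM ran from 973798 to 1038424 in the deletion libraries and from 1039954 to 1063502 in the recovery libraries. Read numbers are not given, so the depth is unknown and no counting interval was computed. The test took in the 9007 genes that reached 1 FPKM in 3 or more of the 6 libraries. The other 853 genes stayed below that level, and 69 of them were listed at 0 in all 6 libraries.

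Differences between the strains were widespread and went in both directions. Relative to the recovery strain, 1397 genes were higher and 1455 were lower in the deletion strain (limma on log2(FPKM + 1), Benjamini-Hochberg adjusted p under 0.05). Together these were 31.7% of the genes tested, 15.5% higher and 16.2% lower. By at least 2-fold, 776 genes were higher, which is 8.62% of those tested, and 813 were lower, which is 9.03%. An unadjusted p under 0.05 was reached by 3886 genes. In each of the 2852 genes past the threshold, the 3 deletion values all lay on one side of the 3 recovery values. Such separation was common in itself, at 49.4% of all tested genes, and 1599 separated genes did not pass the threshold.

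**Figure D1:**
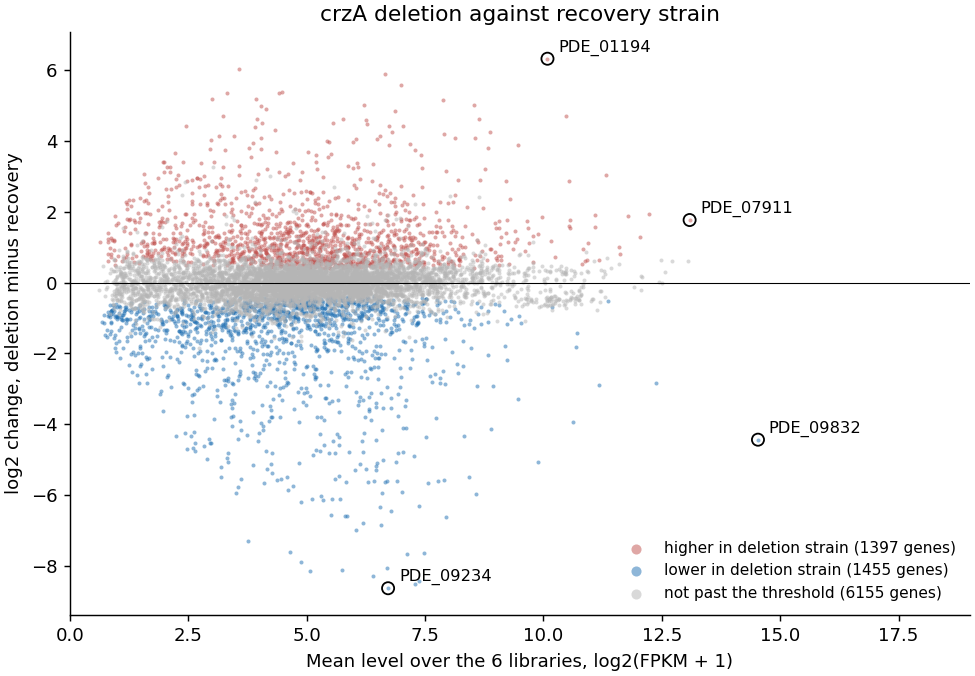
Each point is 1 of 9007 genes, with its mean level over the 6 libraries on the x axis (log2(FPKM + 1)) and its log2 change, deletion minus recovery, on the y axis. Red genes were higher and blue genes lower in the deletion strain past the threshold, grey genes were not past it, and the 4 circled genes are those named by rule. The blue cloud reaches a log2 change of -8.64 and the red cloud 6.33.

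The 2 directions were nearly even in number on the deposited scale, a balance that turned with scaling, from 1603 higher and 1224 lower after rescaling to TPM to 1213 higher and 1592 lower after rescaling without the most abundant gene. The steepest differences were mostly decreases in the deletion strain, also after each of these rescalings. At 4-fold or more, 243 genes were higher and 356 lower. At 8-fold or more, 95 were higher and 194 lower, and at 32-fold or more 12 were higher and 69 lower. A change of at least 128-fold was seen in 0 higher and 12 lower genes. The middle of both sets was alike, with a median log2 change of 1.08 among the genes higher and -1.09 among those lower, against -0.02 over all tested genes. The tails were not, since the 90th percentile of the higher genes was a log2 change of 2.55 and the 10th percentile of the lower genes was -3.57. Because 1 was added to each FPKM value, these sizes understate the change of genes with low levels.

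**Figure D2:**
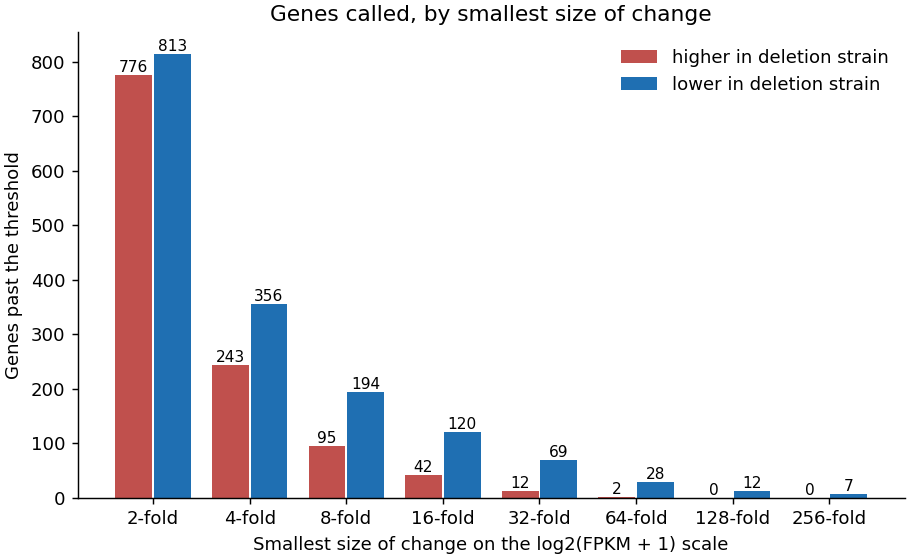
Bars count the genes past the threshold that changed by at least the fold on the x axis, higher (red) or lower (blue) in the deletion strain. The bars are near equal at 2-fold, with 776 higher and 813 lower, and part at larger sizes, with 12 higher and 69 lower at 32-fold.

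Size of change also varied with the level of the transcript. Genes were classed by their mean FPKM over the 6 libraries. Among the 334 genes at 500 FPKM and over, 68 were higher in the deletion strain and 41 were lower. Those 68 had a median log2 change of 1.54, and those 41 one of -4.13. Among the 4147 genes between 20 and 100 FPKM, 603 were higher and 605 lower, with medians of 0.98 and -0.95. Among the 1013 genes under 5 FPKM, 153 were higher and 211 lower, with medians of 1.13 and -1.04. As shares of their classes, the genes called lower were 12.3% at 500 FPKM and over, 14.6% between 20 and 100 FPKM and 20.8% under 5 FPKM, against 16.2% over all tested genes. Counted at any size, the decreases at the top level were thus no more frequent than elsewhere, but their median size was larger. Decreases of at least 2-fold made up 10.5% at 500 FPKM and over, 6.87% between 20 and 100 FPKM and 11.4% under 5 FPKM, against 9.03% over all tested genes. Genes called higher were 20.4%, 14.5% and 15.1% of the same classes, against 15.5% over all. Increases of at least 2-fold made up 14.7%, 7.09% and 8.69%, against 8.62% over all. The added 1 FPKM limits the sizes under 5 FPKM, where 1 higher and 0 lower genes reached 8-fold. Some of the decreases at the top level, such as PDE_09234, lay in a run of locus numbers described below.

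A small number of transcripts were near absent in one strain and present in the other. In 18 genes all 3 deletion values were under 1 FPKM and all 3 recovery values were at least 10 FPKM. Their recovery means ran from 12.9 to 170.2 FPKM, with a median of 30.9. The reverse held in 8 genes, with recovery values under 1 FPKM and deletion means from 12 to 96.2 FPKM, median 20.3. All of these genes passed the test, but they were chosen for a wide gap in these same values, so passing was largely fixed by that choice. None of the 18 was at 0 in all 3 deletion libraries, and none of the 8 was at 0 in all 3 recovery libraries. Low levels of these transcripts were therefore still listed in the strain where they were near absent.

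The transcript with the largest fall in FPKM was PDE_09832, for which the sources used here give no product. It stood at 4749, 4362 and 6301 FPKM in deletion replicates 1, 2 and 3, and at 111988, 109347 and 110168 FPKM in recovery replicates 1, 2 and 3. The strains were far apart, and the spread within each was small beside the gap. It held 0.514% ± 0.0829 of all summed FPKM in the deletion strain and 10.5% ± 0.180 in the recovery strain (SD, n = 3 each). It was the most abundant transcript of the recovery strain and the 14th of the deletion strain. Its mean was 21.5-fold lower in the deletion strain. On the log2 scale this was -4.44 ± 0.20 (SE, limma adjusted p = 6.22e-06). With no protein or product known, the role of this transcript cannot be named. Shares and ranks in this text compare different genes by FPKM, a unit that the library protocol does not match. They may therefore not be shares or ranks of molecules.

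PDE_09234 had the largest log2 change of all. It stood at 3.92, 3.45 and 5.72 FPKM in deletion replicates 1 to 3, and at 1997, 1936 and 2406 FPKM in recovery replicates 1 to 3. It was thus at a few FPKM in each deletion library and at close to 2000 FPKM or above in each recovery library, where its mean ranked 45th. The mean was 484-fold lower in the deletion strain. On the log2(FPKM + 1) scale the change was -8.64 ± 0.19 (SE, limma adjusted p = 8.27e-07).

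PDE_01194 had the largest log2 change among the genes higher in the deletion strain. Its level was 8808, 9491 and 11121 FPKM in deletion replicates 1 to 3, and 124, 162 and 86.1 FPKM in recovery replicates 1 to 3. The lowest deletion value lay far above the highest recovery value. Its mean ranked 3rd in the deletion strain and 1306th in the recovery strain, and was 79.1-fold higher in the deletion strain. The log2 difference was 6.33 ± 0.25 (SE of limma, limma adjusted p = 4.36e-06).

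PDE_07911 had the largest rise in FPKM. It stood at 17835, 13092 and 17759 FPKM in deletion replicates 1 to 3, and at 4196, 4474 and 5584 FPKM in recovery replicates 1 to 3. It was abundant in both strains, with deletion replicate 2 the lowest of the 3 deletion values. It ranked 1st in the deletion strain and 11th in the recovery strain. The log2 difference was 1.77 ± 0.21 (SE, limma adjusted p = 7.93e-04). It took 1.63% ± 0.251 of summed FPKM in the deletion strain and 0.451% ± 0.0749 in the recovery strain (SD, n = 3 each).

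**Figure D3:**
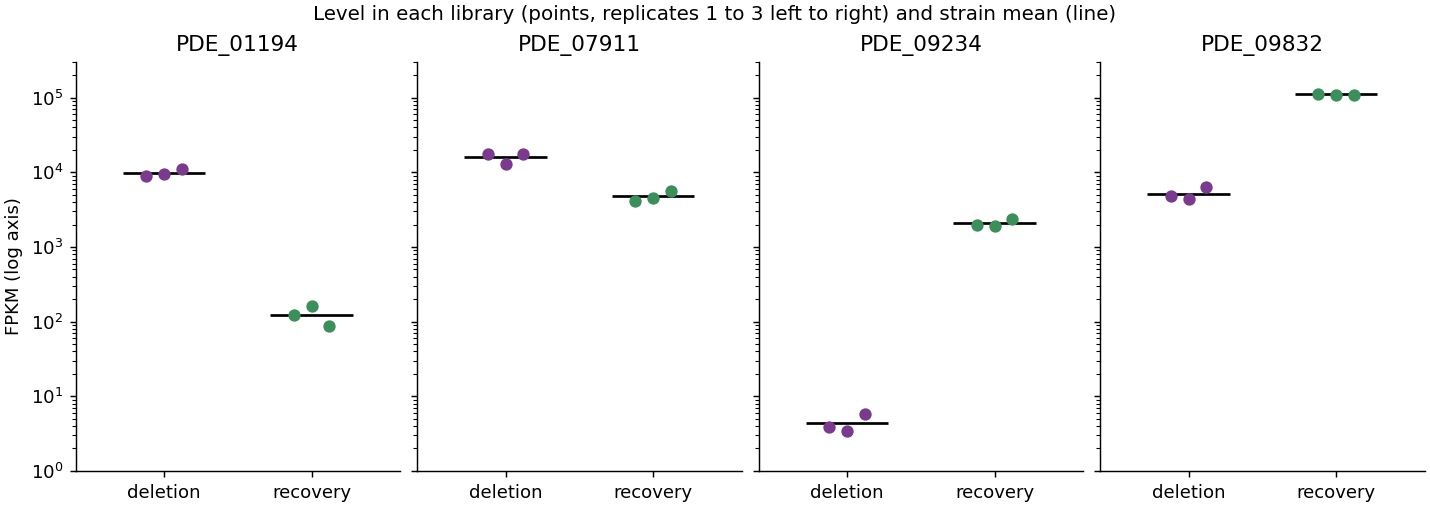
Points are the FPKM of each gene in deletion replicates 1 to 3 (left) and recovery replicates 1 to 3 (right) on a log axis, and lines are strain means. The strains do not overlap in any of the 4 genes. The gap is widest in PDE_09234, with means of 4.36 and 2113 FPKM in the deletion and recovery strains, and narrowest in PDE_07911, with 16229 and 4751 FPKM.

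The most abundant transcripts were partly different ones. The 10 genes with the highest mean in the deletion strain and the 10 with the highest mean in the recovery strain had 3 in common, and of the 100 highest in each strain 61 were in common. Of the 100 genes with the highest mean over the 6 libraries, 22 were higher in the deletion strain, 11 were lower and 67 did not pass the test. Over all tested genes the shares were 15.5% higher, 16.2% lower and 68.3% not past it. For 40 of these 67, the 95% interval of the difference lay within 2-fold in either direction, against 74.9% of all genes that did not pass. PDE_09166, chosen after its values were seen, was one of the steadiest. It stood at 6003, 4733 and 6781 FPKM in the deletion libraries and at 5501, 6118 and 5956 FPKM in the recovery libraries, so the strains overlapped. Its log2 change was -0.02, with a 95% interval of -0.46 to 0.42 (limma adjusted p = 0.949).

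The share of summed FPKM held by the top of the list depended on PDE_09832. The 10 most abundant genes of each library took 9.15%, 8.52% and 10.2% in deletion replicates 1 to 3, and 16.3%, 16.2% and 16.6% in recovery replicates 1 to 3. Once PDE_09832 was left out, the order of the strains turned, with 8.56% to 10.3% in the deletion libraries and 6.83% to 7.23% in the recovery libraries. For the 100 most abundant genes the shares were 29.7% to 33.2% in the deletion libraries and 34.9% to 35.5% in the recovery libraries. Without PDE_09832 they were 29.5% to 32.9% in the deletion libraries and 27.4% to 28.1% in the recovery libraries. The groups did not overlap in any of these 4 measures, each with a two-sided exact permutation p of 0.10, the smallest that 3 against 3 libraries can give (Benjamini-Hochberg adjusted 0.117 over 7 measures). The number of genes detected overlapped between the strains, with 8798 to 8891 at 1 FPKM or more in the deletion libraries and 8889 to 8919 in the recovery libraries (exact permutation p = 0.20). At 5 FPKM or more it did not overlap, with 7725 to 7805 genes in the deletion libraries and 7858 to 7899 in the recovery libraries (exact permutation p = 0.10, adjusted 0.117).

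For the genes that did not pass the test, the intervals show how far a difference was bounded. They numbered 6155, or 68.3% of those tested. In 4613 of them the 95% interval lay within 2-fold in either direction. In 193 the interval reached past 4-fold, so these genes were not measured closely enough to bound the difference. A difference estimated at 2-fold or more did not pass the threshold in 82 genes higher and 72 genes lower in the deletion strain.

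Some of the genes called in each direction had consecutive locus numbers. Locus numbers are taken here only as an order, since the places of these genes on the chromosomes were not analysed here. A run was an unbroken series of consecutive numbers in which every gene was tested and past the threshold in one direction. There were 73 such runs of at least 3 genes among the lower genes, holding 313 genes or 21.5% of them. Among the higher genes there were 68 runs, holding 258 genes or 18.5%. Runs of at least 5 genes numbered 15 in each direction, and held 125 lower and 88 higher genes. The longest had 24 genes among the lower and 10 among the higher. The runs were found from the test itself and named after their values were seen, so the values below describe them and carry no test.

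Most of the decreases of at least 32-fold lay in a few of these long runs, which held 125 of the 1455 genes called lower. Of the 69 genes lower by at least 32-fold, 49 lay in the 15 long runs, 41 of them in the 4 longest. Of the 194 genes lower by at least 8-fold, 81 or 41.8% lay in the 15 long runs, so most of these lay outside them. Of the 12 genes lower by at least 128-fold, 11 lay in 1 run, PDE_09226 to PDE_09245. There was no gene lower by 32-fold in 6 of the 15 runs, and none lower by 8-fold in 3. The median log2 change was -4.41 in the 125 genes of the long lower runs, against -1.09 in all genes called lower. Together the 125 genes took 0.275% ± 0.0364 of summed FPKM in the deletion strain and 4.93% ± 0.0635 in the recovery strain (SD, n = 3 each). The 88 genes of the long higher runs had a median log2 change of 1.86, against 1.08 in all genes called higher. They took 2.36% ± 0.162 in the deletion strain and 0.240% ± 0.0131 in the recovery strain.

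The longest run ran from PDE_00789 to PDE_00812. Summed over its 24 genes, the level was 245, 292 and 350.3 FPKM in deletion replicates 1 to 3, and 11201, 11085 and 8627 FPKM in recovery replicates 1 to 3. All 24 genes were lower by at least 2-fold in the deletion strain and 23 by at least 8-fold, with a median log2 change of -5.13. Genes next to a run are by its definition not called in its direction, so their values mark no border. PDE_00788, just before this run, had a log2 change of -0.03, with a 95% interval of -0.38 to 0.32 (limma adjusted p = 0.902). PDE_00813, just after it, did not pass the test at -0.60, with an interval of -1.06 to -0.13 (limma adjusted p = 0.0587). Further out, PDE_00786 was again lower in the deletion strain, by -3.56 on the log2 scale. Within the strains, recovery replicate 3 had the lowest of the recovery values in all 24 genes and deletion replicate 1 the lowest of the deletion values in 19. The share of all tested genes with such an order of libraries is not given, here or for the runs below, so these counts may reflect whole libraries. The median tested gene stood at 31.1, 30.4 and 29.6 FPKM in recovery replicates 1 to 3.

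The run with the steepest change, PDE_09226 to PDE_09245, had 20 genes and included PDE_09234. Its summed level was 288, 245 and 416 FPKM in deletion replicates 1 to 3, and 23050, 22998 and 26275 FPKM in recovery replicates 1 to 3, a 76.2-fold lower mean in the deletion strain. It made up 0.0316% ± 0.00764 of summed FPKM in the deletion strain and 2.29% ± 0.205 in the recovery strain (SD, n = 3 each). The change was smallest at its ends and largest in its middle. The first gene had a log2 change of -0.57 and the last one of -1.85, while 16 of the 20 were lower by at least 8-fold and the median was -7.64. Just before it PDE_09225 was higher in the deletion strain, by 2.16 on the log2 scale (limma adjusted p = 0.0498), and PDE_09224 was lower, at -0.63 (limma adjusted p = 0.0192). The change of PDE_09225 was raised by deletion replicate 2, with 3.49, 25.7 and 3.58 FPKM in deletion replicates 1 to 3. Its recovery values were low, at 0.990, 1.31 and 0.330 FPKM. Within the run recovery replicate 3 was the highest of the recovery values in 17 of 20 genes, unlike in the run from PDE_00789, where it was the lowest in all 24.

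Other lower runs also held steep decreases. The 12 genes from PDE_09999 to PDE_10010 were all lower by at least 8-fold, with a summed level of 66.7, 100.4 and 106 FPKM in the deletion libraries and 4457, 4398 and 3624 FPKM in the recovery libraries. The 9 genes from PDE_01063 to PDE_01071 summed to 48.5, 72.0 and 88.3 FPKM in the deletion libraries and to 3039, 2966 and 2432 FPKM in the recovery libraries. In both runs the lowest recovery library was replicate 3 and the lowest deletion library replicate 1, as in the run from PDE_00789. The 8 genes from PDE_03620 to PDE_03627 were expressed at lower levels, with sums of 19.7, 23.5 and 20.2 FPKM in the deletion libraries and 242, 242 and 241 FPKM in the recovery libraries.

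The longest run among the higher genes, PDE_03276 to PDE_03285, had 10 genes with smaller changes. Its sums were 369, 555 and 644 FPKM in deletion replicates 1 to 3, and 80.2, 87.2 and 84.7 FPKM in recovery replicates 1 to 3. The median log2 change was 1.29, and a single gene of the 10 was higher by at least 8-fold. Beside it PDE_03275 was lower in the deletion strain, at -1.13 (limma adjusted p = 0.00324), and PDE_03287 was higher, at 2.56 (limma adjusted p = 0.0143). The steepest higher run, PDE_01228 to PDE_01234, had 7 genes and sums of 1682, 971 and 1559 FPKM in the deletion libraries, against 91.0, 99.0 and 88.8 FPKM in the recovery libraries. Its median log2 change was 4.27, and 5 of its genes were higher by at least 8-fold. Deletion replicate 2 had the lowest of the deletion values in all 7 of its genes.

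**Figure D4:**
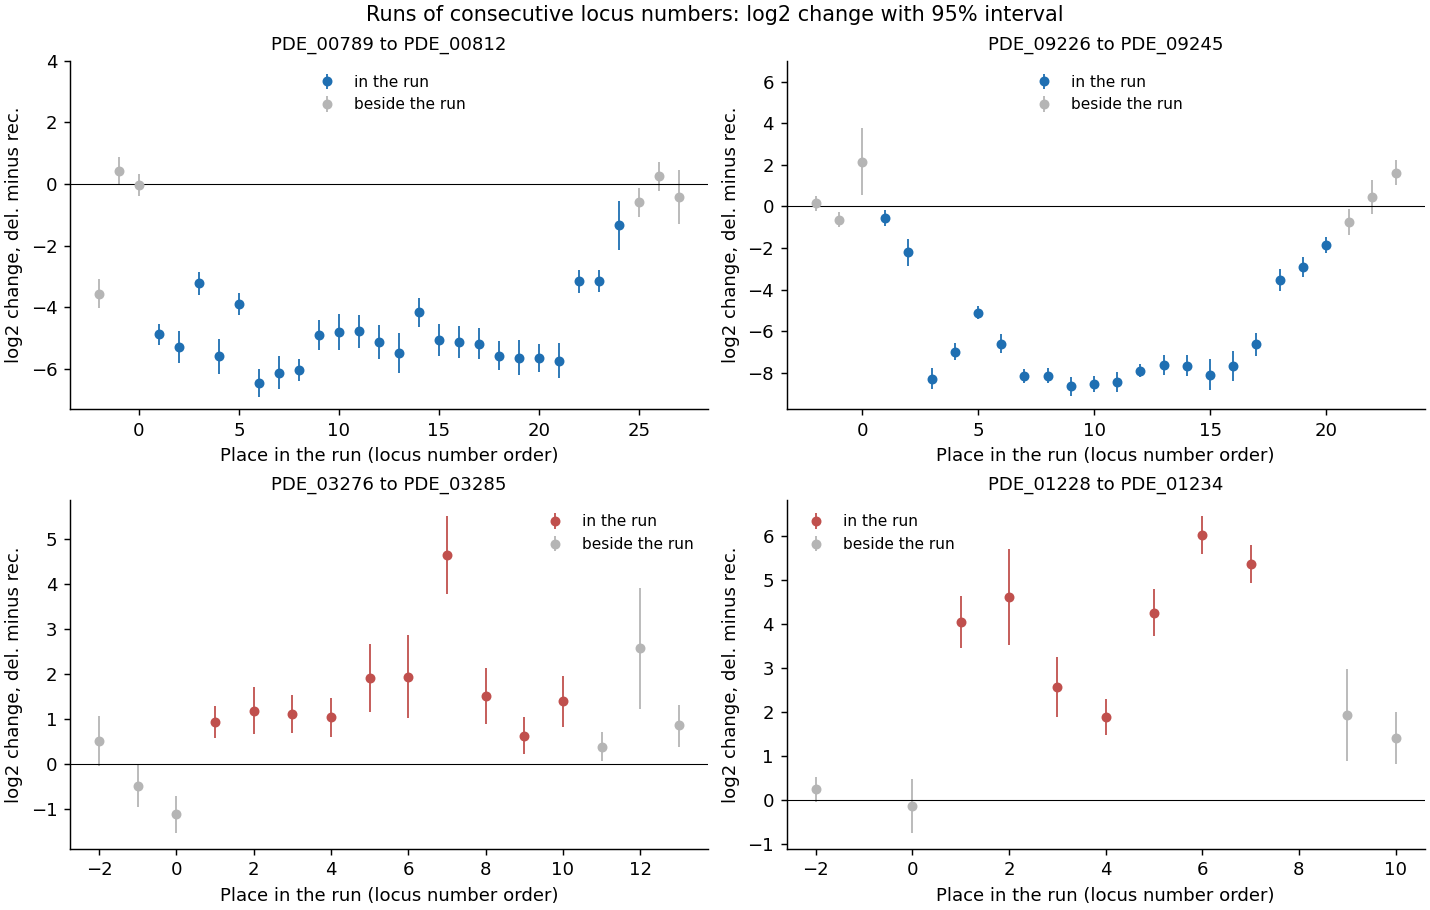
Points are log2 changes, deletion minus recovery, with 95% intervals from limma, for the genes of a run (coloured) and the tested genes up to 3 locus numbers beside it (grey), by place in the run. The upper panels show the longest and the steepest lower run, with medians of -5.13 and -7.64, and the lower panels the longest and the steepest higher run, with medians of 1.29 and 4.27. Genes beside the runs move either way, at -0.03 and -0.60 next to the run from PDE_00789 and at 2.16 (PDE_09225) and -0.74 (PDE_09246) next to that from PDE_09226. The value of PDE_09225 is raised by deletion replicate 2, which stood far above the other deletion libraries in this gene.

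Higher genes were also dense in one stretch of numbers. Locus numbers up to 09999 were cut into 100 blocks of 100. Numbers above 09999 were left out, and with them most of the run from PDE_09999 to PDE_10010. The share of tested genes called higher in the deletion strain had a median of 15.8% over the blocks. It was 50.0% in the block from 01200 to 01299, with 40 of 80 tested genes, and 35.4% in the block before it, with 28 of 79. The share of genes called lower had a median of 14.5%. Among these 100 blocks it was highest, at 37.6%, in the block from 09200 to 09299, with 35 of 93. That block held 16 genes lower by at least 8-fold, where the median block held 1, and all 16 belong to the run from PDE_09226 to PDE_09245. The run of 6 genes from PDE_01191 to PDE_01196, which includes PDE_01194, and the runs from PDE_01211 to PDE_01219 and from PDE_01228 to PDE_01234 all lay in the 2 neighbouring blocks dense in higher genes. Genes of the runs are part of the block counts, so blocks and runs are not separate observations.

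The libraries of the strains were not equally alike. Principal component 1 of the 9007 genes held 80.5% of the variance and set the deletion libraries (48.1 to 58.5) apart from the recovery libraries (-55.0 to -53.1). Component 2 held 13.9% and set deletion replicate 2 (46.3) apart from deletion replicates 1 and 3 (-23.1 and -19.4), with the recovery libraries close to 0. The median gene had an SD of 0.284 on the log2 scale in the deletion strain and 0.110 in the recovery strain. Between deletion replicates 1 and 3 alone it was 0.143.

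Deletion replicate 2 lay at least 2-fold above both other deletion libraries in 440 genes and at least 2-fold below both in 443. For deletion replicates 1 and 3, and for each recovery library, the number apart in either direction was between 9 and 76. In 733 of the 883 genes in which deletion replicate 2 lay apart, its value was displaced towards the recovery strain, as were 17 of 32 for deletion replicate 1 and 59 of 76 for deletion replicate 3. For recovery replicates 1, 2 and 3, 8 of 9, 8 of 13 and 26 of 68 were displaced towards the deletion strain. The other libraries of the same strain set both the displacement and the direction of the other strain. The share to be had without any strain difference is therefore unknown, and no conclusion is drawn from these counts. Leaving deletion replicate 2 out raised the calls to 2519 higher and 2698 lower. These included 1326 of the 1397 and 1451 of the 1455 called with all 6 libraries. The 1193 added higher genes had medians of 0.62, 0.01 and 0.53 for deletion replicates 1, 2 and 3 minus the recovery mean (log2), and the 1247 added lower genes -0.60, -0.01 and -0.62. These genes were selected for passing only without replicate 2, so its place near the recovery mean is partly fixed by that choice. What sets deletion replicate 2 apart was not tested.

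**Figure D5:**
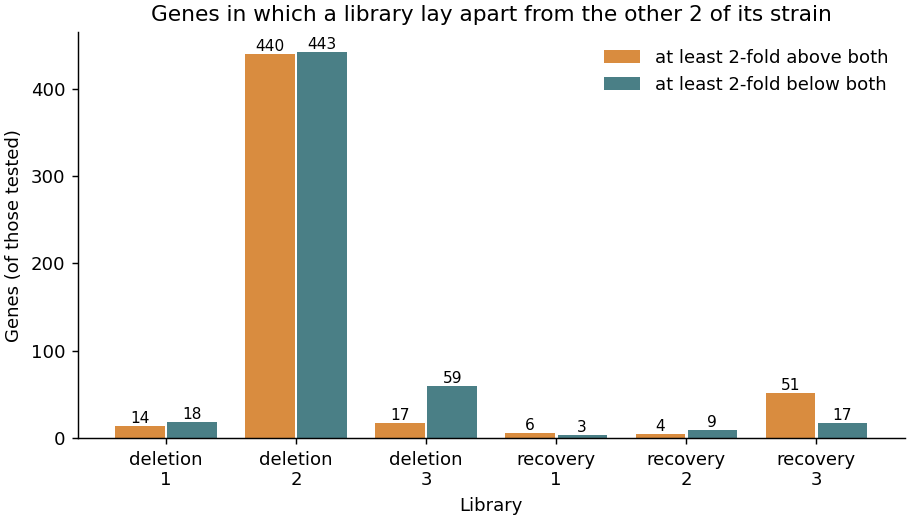
Bars count the genes in which a library lay at least 2-fold above (orange) or at least 2-fold below (teal) both other libraries of its strain, on the log2(FPKM + 1) scale. Deletion replicate 2 has 440 and 443 such genes, and every other library has at most 59 in either direction.

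The number of calls was also lower without any single recovery library. Without recovery replicate 1 779 genes passed as higher and 758 as lower in the deletion strain, without recovery replicate 2 there were 785 and 777, and without recovery replicate 3 there were 825 and 881. In none of the fits that left out a library was a gene called in the direction opposite to its call with all 6. The runs depended on the libraries too. Runs of at least 5 lower genes numbered 39 without deletion replicate 2 and 5 without recovery replicate 1, 2 or 3. Of the 125 genes in the 15 long lower runs, 98 to 125 were still called lower when a library was left out. Only 2 of the 15 runs were whole without recovery replicate 1 or 2, and 3 without recovery replicate 3. The filter was applied again to the libraries that remained. A gene under 1 FPKM in all deletion libraries, such as PDE_01071, was thus not tested once a recovery library was left out. Its run then counted as broken. The same held for genes under 1 FPKM in all recovery libraries, such as PDE_01233, once a deletion library was left out. How many runs broke only for this reason was not counted. With a library left out, the longest lower run had 23 to 25 genes. Runs of at least 5 higher genes numbered 32 without deletion replicate 2, and 7 or 8 without any other library. The longest higher run had 17 genes without deletion replicate 2, 10 without deletion replicate 1 or 3, and 8 without any one recovery library. Of the 88 genes in the 15 long higher runs, 70 to 78 were still called higher in these fits, and 2 to 9 of the 15 runs were whole.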

How the data were processed

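Mycelial RNA was made into short-tag libraries with NlaIII and MmeI, per the labels' protocols. The authors deposited 1 table of FPKM values, per the file headers, rounded to 2 decimals. Since each transcript yields its tags at 1 site, tag counts need no correction for length, and the protocol does not match the unit. If they were divided by length, levels of different genes are not numbers of molecules. Not given in the sources used here: the aligner, the counting tool, the build and the annotation.

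Columns were matched to samples by title, and the wild-type columns were not used. Genes at 1 FPKM or more in 3 or more of the 6 libraries were kept. The log2(FPKM + 1) values, not scaled again, were fitted in limma 3.58.1 (R 4.3.3; trend and robust options, 1 mean per strain, two-sided, Benjamini-Hochberg over 9007 genes, threshold 0.05). Changes are deletion minus recovery. The fit was tested on simulated data. Libraries were summarised and tested with exact permutations in Python 3.11.15 with numpy 2.4.6, pandas 2.3.3 and scipy 1.17.1, and plotted with matplotlib 3.10.9.

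The 4 genes named by rule passed the threshold, had strains that do not overlap and a mean of at least 5 FPKM, and had the largest log2 change or FPKM difference in each direction. Other locus numbers were chosen after their values were seen. The comparison, lists and rules were chosen with earlier results of these data known.

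Recovery replicates 1 and 2 were the most alike (r = 0.996 across genes). Over 178 genes with a mean of at least 1000 FPKM, read sampling would give their differences only if 1 read were worth 9.42 FPKM. For comparison, 440 genes had a value above 0 but under 0.2 FPKM in some of the 6 libraries. The worth of a read can differ between genes, so this is only a rough guide. It cannot tell separate cultures from repeat libraries of the same culture. Between recovery replicates 2 and 3, 101 tested genes had equal values, against 20 between replicates 1 and 2 and 22 between 1 and 3. The reason was not tested. All recovery replicates were counted as separate samples, as labelled. Alternatives covered pseudocounts, filters, scalings, limma options, array weights, thresholds, each library left out and the replicate number as a block.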

Additional observations from a re-analysis of the deposited data

How the results depend on the processing

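Pseudocounts of 0.1 and 5, no filter or one at 5 FPKM, rescaling to TPM, median centring, quantile normalization, rescaling without the most abundant gene, limma without trend and robust options, and the replicate block moved none of the counts of calls, at any size or at 2-fold or more, by more than 1.5 times. Counts of steeper changes moved further with the pseudocount. At 8-fold or more, 148 genes were higher and 253 lower with 0.1, and 60 and 142 with 5. At 32-fold or more, 22 were higher and 94 lower with 0.1, and 4 and 42 with 5. No scaling moved the median log2 change by more than 0.08. All 76 values of the 4 named genes over the alternatives kept their direction and stayed past the threshold. They ranged from 6.07 to 6.55 for PDE_01194, 1.68 to 2.49 for PDE_07911, -8.91 to -7.82 for PDE_09234 and -4.60 to -3.29 for PDE_09832.

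Array weights raised the calls to 2497 higher and 2948 lower, with the lowest weight, 0.1018, for deletion replicate 2. An adjusted p under 0.01 left 718 and 801, and a test against a 1.5-fold change left 466 and 578, of which 465 higher genes were at least 2-fold; both are stricter by construction. With single libraries left out, the higher calls ranged from 779 to 2519 and the lower calls from 758 to 2698, and at 2-fold or more 602 to 931 higher and 643 to 1048 lower. Runs of genes that were also at least 2-fold numbered 33 higher and 44 lower with 3 or more genes, and 8 higher with 5 or more. Omitting single libraries gave 37 to 183 higher and 29 to 204 lower runs of at least 3 genes, and 7 to 32 higher and 5 to 39 lower runs of at least 5. Without the most abundant gene, the deletion minus recovery difference in share turned to 2.26 percentage points for the top 10 genes (exact permutation p = 0.10) and 3.41 for the top 100 (exact permutation p = 0.10), from -7.07 and -3.80. With a single library left out, some genes were not tested because of the filter, as stated above. Any other cause of the changes without single libraries was not tested.

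Samples were not paired by replicate number, since the deviations of same-numbered libraries correlated at -0.0523 to -0.0209. With the replicate block, 1142 genes were higher and 1200 lower. Limits set by depth, which is unknown, were not estimated.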
